A study of Mus musculus with 12 samples.

Results

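The genes described here are 10 widely used markers of pericytes, the mural cells of small vessels, taken by name from a list of marker genes and read in the raw counts of sorted mouse uterine mesenchymal cells. They are Mcam, Cspg4, Art3, Steap4, Higd1b, Ndufa4l2, Cox4i2, Vtn, Rasl12 and Colec11, and each of the 10 was found among the 47729 genes of the count table. Mcam, Cspg4, Art3 and Steap4 passed the low-count filter of the test across all genes, and 6 did not and are described by their summed counts. The list was described as one of low counts, but Steap4 was not one of them, with 13427 counts over the GFPtotal libraries.

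The cells came from healthy uteri of cycling female Pdgfrb-BAC-eGFP mice, in which the regulatory region of Pdgfrb on a bacterial artificial chromosome drives a green fluorescent protein. The 6 GFPtotal libraries, titled Naive, hold all GFP-positive cells, that is the GFP-high perivascular cells together with the GFP-low stromal fibroblasts. The 6 GFPdim libraries, titled Stromal, hold the GFP-low cells alone, and all 12 libraries share strain, tissue and sex, with no age and no stage of the oestrous cycle in the labels. The comparison is therefore of a mixture with one of its components, made to learn by difference what the GFP-high cells express, and no library holds GFP-high cells alone. The labels do not say which mouse or mice a library came from, so the p-values measure only the spread between these libraries, which may be technical.

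Total counts ran from 12631266 to 14950639 in GFPtotal and from 14339804 to 18425596 in GFPdim, of which 32.4% to 49.0% fell on mitochondrially encoded genes. GFPtotal 3, 4 and 5 stood apart from the other libraries along the first principal component, which held 34.0% of the variance, with scores of 102 to 107, against -3.82 to 6.66 in GFPtotal 1, 2 and 6 and -64.6 to -31.1 in GFPdim. The header inside the count file of 1 library, labelled GFPdim 6, gives its input a name of the Naive kind rather than the Stromal name of its label. Its values in CPM, the count scaled to library size, lay within the range of GFPdim 1 to 5 for 9 of the 10 markers, all but Steap4. For Higd1b, Cox4i2, Colec11, Ndufa4l2, Vtn and Rasl12 that library had 0 or 1 count. Some GFPtotal libraries had as few of all of these but Rasl12, so such values say little about its kind. The pericyte gene Rgs5 had 594 to 934 CPM in GFPtotal, against 10.9 CPM in the library labelled GFPdim 6 and 0.904 to 7.71 CPM in the other GFPdim libraries. Results are given with all 12 libraries, and then without GFPtotal 3, 4 and 5 and without GFPdim 6.

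Pericytes sit within the basement membrane of capillaries and venules, steady the endothelium through platelet-derived growth factor receptor beta and Notch signalling, and regulate local flow. In the uterus the vessel bed is remodelled with each cycle, and perivascular cells have been studied there as a source of stromal cells. No gene marks pericytes alone: several of the markers described here are shared with vascular smooth muscle or endothelium, and their levels vary between organs, several having been defined in brain or lung.

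All 10 markers had more counts in GFPtotal than in GFPdim. Of the 4 that entered the test, Mcam, Cspg4 and Art3 were called higher in GFPtotal at an adjusted p below 0.05 (edgeR's quasi-likelihood test, Benjamini-Hochberg over 14523 genes), where 4.55% of all genes tested were called higher and 0.854% lower. Steap4 was not called. In 5 of the 10 every GFPtotal library lay above every GFPdim library. These were Mcam, Cspg4 and Art3, and also Vtn and Rasl12 from below the filter. Of the genes tested, which leave out Vtn and Rasl12, 2.86% showed this. For Vtn the gap was 1 count in GFPtotal 3 (0.0715 CPM) against 1 count in GFPdim 1 (0.0632 CPM). Mcam, Cspg4 and Art3 stayed called in each of the 19 alternative settings run. Mcam and Cspg4 passed the filter through their GFPtotal counts, with at most 15 (Mcam) and 21 (Cspg4) counts in a GFPdim library. The direction itself is shared by 50.0% of all genes tested, and the markers were picked as pericyte genes with earlier results of these libraries known.

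**Figure D1:**
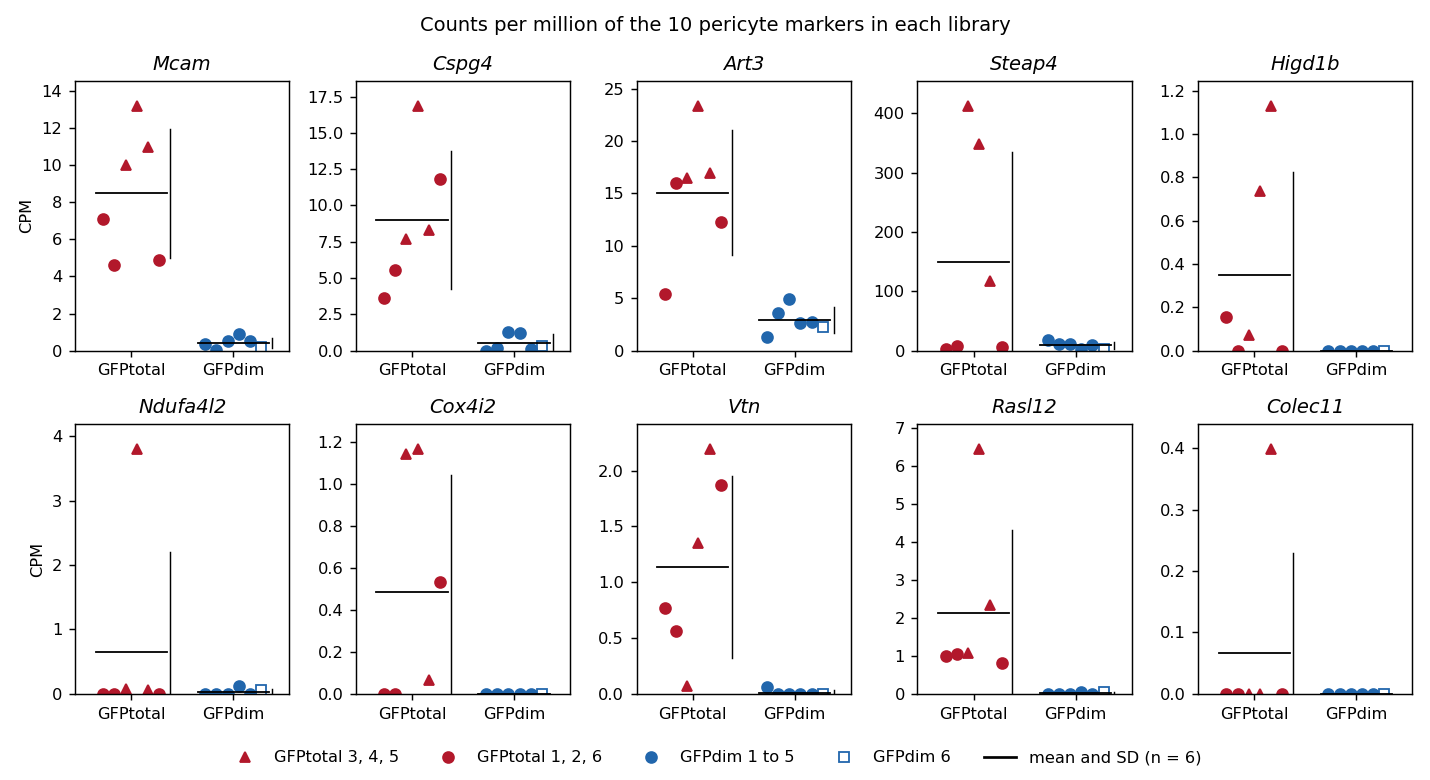
CPM on TMM-scaled library sizes of the 10 markers, a panel per gene with its own linear axis, in the 6 GFPtotal and the 6 GFPdim libraries. Each point is a library, triangles are GFPtotal 3, 4 and 5, the open square is GFPdim 6, and bars give mean and SD. Mcam, Cspg4, Art3, Vtn and Rasl12 show no overlap between the groups, Steap4 lies high in 3 GFPtotal libraries only, and Higd1b, Cox4i2 and Colec11 are at 0 in all GFPdim libraries.

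Levels were compared per exon length. Steap4 averaged 47.3 ± 58.9 CPM per kilobase of exon in GFPtotal (SD, n = 6), Art3 3.84, Mcam 2.53 and Cspg4 1.12. The mean of Steap4 was carried by GFPtotal 3, 4 and 5: in GFPtotal 1, 2 and 6 it had 0.883, 2.51 and 1.84 CPM per kilobase, below Art3 with 1.38, 4.06 and 3.13. The 6 markers below the filter averaged between 0.0481 (Colec11) and 0.685 (Ndufa4l2) CPM per kilobase in GFPtotal. On the same scale Rgs5, a regulator of G-protein signalling that is among the most abundant pericyte transcripts, averaged 172 CPM per kilobase in GFPtotal and 1.057 in GFPdim. Art3 and Mcam overlapped in their spread, as did the genes below the filter other than Colec11: Art3 had an SD of 1.51 and Mcam of 1.04 CPM per kilobase over the 6 GFPtotal libraries, and the SD of each gene below the filter was 0.400 to 1.61 for Vtn, Rasl12, Higd1b, Cox4i2 and Ndufa4l2.

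Of the surface proteins, Mcam and Cspg4 were called higher in GFPtotal and did not overlap between the groups. Mcam, an adhesion molecule of the immunoglobulin superfamily found on mural cells and on endothelium, spans chr9:44134469-44142727 on GRCm38 (ENSMUSG00000032135, 3350 exonic bases). Cspg4, a transmembrane chondroitin sulphate proteoglycan of mural and glial progenitor cells, lies on the same chromosome at chr9:56865104-56899870 (ENSMUSG00000032911, 8050 exonic bases). The 250 bases before the RefSeq start of each are printed because both genes were called with no overlap between groups, and the windows hold none of the 6 motifs searched on both strands, so no letters are in capitals. The windows are chr9:44134408-44134657 and chr9:56864854-56865103, both on the plus strand of GRCm38.p6.
Mcam: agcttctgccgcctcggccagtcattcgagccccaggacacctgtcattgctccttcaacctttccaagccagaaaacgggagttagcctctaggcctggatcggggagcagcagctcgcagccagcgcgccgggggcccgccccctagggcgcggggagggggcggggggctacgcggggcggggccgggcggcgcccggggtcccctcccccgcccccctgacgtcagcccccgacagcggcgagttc
Cspg4: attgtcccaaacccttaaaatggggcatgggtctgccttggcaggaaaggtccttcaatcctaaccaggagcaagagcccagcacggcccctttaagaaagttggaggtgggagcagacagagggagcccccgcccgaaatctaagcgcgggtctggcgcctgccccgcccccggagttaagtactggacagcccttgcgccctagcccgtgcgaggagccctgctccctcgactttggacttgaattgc
The Mcam window is 73.6% G and C and the Cspg4 window 60.4%.

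Mcam had a lowest, median and highest value of 4.62, 8.56 and 13.2 CPM in GFPtotal, against 0.0565, 0.441 and 0.886 CPM in GFPdim. They rested on 55 to 215 counts in a GFPtotal library and 1 to 15 in a GFPdim library. The groups did not overlap, and the lowest GFPtotal library, replicate 2, was still several times above the highest GFPdim library, replicate 4. Mcam averaged 8.47 ± 3.48 CPM in GFPtotal and 0.425 ± 0.285 CPM in GFPdim (SD, n = 6 each), and its log2 difference was 4.30 (SE 0.55, adjusted p = 0.000209, edgeR). Without GFPtotal 3, 4 and 5 it was 3.66 (adjusted p = 0.0116), and without GFPdim 6 it was 4.16 (adjusted p = 0.000755).

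Cspg4 had 3.64, 8.02 and 16.9 CPM as lowest, median and highest value in GFPtotal, against 0, 0.248 and 1.32 CPM in GFPdim. The GFPdim libraries fell into a higher pair, replicates 3 and 4 with 21 counts each, and 4 libraries with 0 to 6 counts. Even so, the lowest GFPtotal library, replicate 1, lay above both. The means were 8.997 ± 4.748 CPM in GFPtotal and 0.534 ± 0.588 CPM in GFPdim (SD, n = 6 each), and the log2 difference was 4.05 (SE 0.73, adjusted p = 0.00324, edgeR). It was 3.68 (adjusted p = 0.0390) without GFPtotal 3, 4 and 5 and 3.94 (adjusted p = 0.0105) without GFPdim 6. Within GFPtotal the libraries that stood apart were high for Mcam, at 11.4 ± 1.64 CPM against 5.54 ± 1.37 CPM in GFPtotal 1, 2 and 6 (SD, n = 3 each). For Cspg4 they overlapped with the rest, at 10.97 ± 5.12 CPM against 7.02 ± 4.29 CPM.

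Markers of other vessel cells were checked beside Mcam and Cspg4. Mcam is also an endothelial gene, and the summed level of 10 endothelial markers ranged in GFPtotal libraries over 33.5 to 59.8 CPM, against 39.6 to 60.2 CPM in GFPdim. By edgeR none of the 4 endothelial markers tested was called higher (2 at an unadjusted p below 0.05), Cdh5 was called lower, and Cldn5 had no count in any library. The call of Cdh5 was lost in 9 alternatives, among them limma-voom, GFPtotal 3, 4 and 5 left out together (-1.48, adjusted p = 0.273), and GFPtotal 3, 4, 5 or 6 or GFPdim 1 or 3 left out singly. Emcn, the endothelial sialomucin, was at 1.71 (adjusted p = 0.0562) and was called higher by DESeq2 and by limma-voom. Of 10 smooth muscle markers, 8 were tested and Acta2, Myh11, Actg2 and Myocd were called higher, Acta2 and Actg2 being close paralogues between which reads could be split. Myocd lost its call when GFPtotal 3, 4 and 5 were left out (4.23, adjusted p = 0.126), with 3 of 8 then called. The 10 summed to 454 to 754 CPM in GFPtotal libraries, against 299 to 412 CPM in GFPdim, with GFPtotal 3, 4 and 5 at 621 to 754 CPM and GFPtotal 1, 2 and 6 at 454 to 493 CPM. Fibroblast markers, 10 of them and all tested, summed to 23720 to 40296 CPM in GFPtotal, against 15642 to 23591 CPM in GFPdim, with GFPtotal 3, 4 and 5 at 23720 to 27639 CPM and GFPtotal 1, 2 and 6 at 37866 to 40296 CPM. Col3a1 was called higher by edgeR and 3 of the 10 by DESeq2, and without GFPtotal 3, 4 and 5 edgeR called Lum, Col1a1, Col1a2 and Col3a1 higher. Leukocyte markers summed to at most 2.58 CPM in GFPtotal and 8.30 CPM in GFPdim. Mesothelial markers summed to 45.2 to 81.1 CPM in GFPtotal, against 73.2 to 105 CPM in GFPdim, with Msln and Upk3b at 0, and GFPtotal 3, 4 and 5 (69.2 to 81.1 CPM) lay above GFPtotal 1, 2 and 6 (45.2 to 48.4 CPM). The part of these cell types in the levels of the pericyte markers was not tested. In these bulk libraries fewer cells of a type and less RNA per cell cannot be told apart.

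Art3 and Steap4 are the markers that belong to families of membrane enzymes. Art3 belongs to the family of mono-ADP-ribosyltransferases that are held at the cell surface by a lipid anchor, and it is a marker of pericytes in several organs. It spans chr5:92331827-92414628 (ENSMUSG00000034842, 3932 exonic bases). The genes of the chemokines Cxcl10 and Cxcl11 lie inside its span on the other strand, and 133 of its exonic bases (3.38%) are also exonic in Cxcl10. The counting did not use strand.

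Art3 was the marker with the most counts in GFPdim after Steap4. Its lowest, median and highest values were 5.41, 16.2 and 23.4 CPM in GFPtotal, against 1.26, 2.67 and 4.97 CPM in GFPdim. The groups did not overlap, but the gap was narrow: GFPtotal 1 with 70 counts lay just above GFPdim 3, which had 79 counts in a larger TMM-scaled library. Art3 averaged 15.1 ± 5.94 CPM in GFPtotal and 2.91 ± 1.26 CPM in GFPdim (SD, n = 6 each), and the log2 difference was 2.37 (SE 0.39, adjusted p = 0.00161, edgeR). Without GFPtotal 3, 4 and 5 it was 1.92 (adjusted p = 0.0471), and without GFPdim 6 it was 2.30 (adjusted p = 0.00537).

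Cxcl10, the antisense neighbour, ranged over 7.43 to 57.6 CPM in GFPtotal, against 0.632 to 4.43 CPM in GFPdim. It was also called higher, with a log2 difference of 3.46 (SE 0.56, adjusted p = 0.00185, edgeR), and of 2.15 (adjusted p = 0.0469) without GFPtotal 3, 4 and 5. Cxcl10 and Art3 each had all of GFPtotal 3, 4 and 5 above GFPtotal 1, 2 and 6. The part of Cxcl10 reads in the counts of Art3 was not tested.

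Steap4 is a metalloreductase of the endosomal and plasma membrane that reduces iron and copper, and in mouse adipose tissue it is induced by inflammatory cytokines. It spans chr5:7960457-7982213 (ENSMUSG00000012428, 3155 exonic bases). Its 250 bases before the RefSeq start, chr5:7960222-7960471 on the plus strand of GRCm38.p6, are printed because it was the marker that differed most between GFPtotal libraries and the window with most kinds of match. Capitals mark, in order, a match to the RBPJ core TGGGAA read on the other strand, to the STAT motif TTCNNNGAA and to the CEBP motif TTGCNNAA.
Steap4: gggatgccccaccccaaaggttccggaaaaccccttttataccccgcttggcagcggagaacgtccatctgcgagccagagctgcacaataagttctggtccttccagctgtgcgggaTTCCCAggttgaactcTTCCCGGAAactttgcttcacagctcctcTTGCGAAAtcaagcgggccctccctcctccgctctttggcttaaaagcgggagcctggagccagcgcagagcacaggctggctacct
The first bases of the matches lie 132, 116 and 87 bases before the start. Among the 32851 mouse promoter windows of this length, 21.6% hold the RBPJ core, 7.02% the STAT motif and 9.56% the CEBP motif. A match is a description of the letters and not evidence of a bound site.

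Steap4 did not separate the groups. Its values were 413, 349 and 117 CPM in GFPtotal 3, 4 and 5 and 2.78, 7.93 and 5.79 CPM in GFPtotal 1, 2 and 6. In GFPdim they were 18.5, 10.8, 12.0, 3.60, 9.02 and 2.06 CPM. So the 3 GFPtotal libraries that stood apart were far above all others, and GFPtotal 1, 2 and 6 lay inside the GFPdim range, with 36, 98 and 65 counts against 5783, 5682 and 1763 in GFPtotal 3, 4 and 5.

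The means of Steap4 were 149 ± 186 CPM in GFPtotal and 9.34 ± 5.98 CPM in GFPdim (SD, n = 6 each), with a log2 difference of 4.00 (SE 1.23) that was not called (adjusted p = 0.0907, edgeR). With GFPtotal 3, 4 and 5 left out the difference was -0.79 (adjusted p = 0.669), so its sign depended on those libraries. It was 3.79 (adjusted p = 0.161) without GFPdim 6. DESeq2 called it (3.98, adjusted p = 0.00338), as did edgeR without GFPtotal 1 (4.26, adjusted p = 0.0464), and limma-voom did not (2.48, adjusted p = 0.436). Over all alternatives the log2 difference ran from -0.79 to 4.31.

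**Figure D2:**
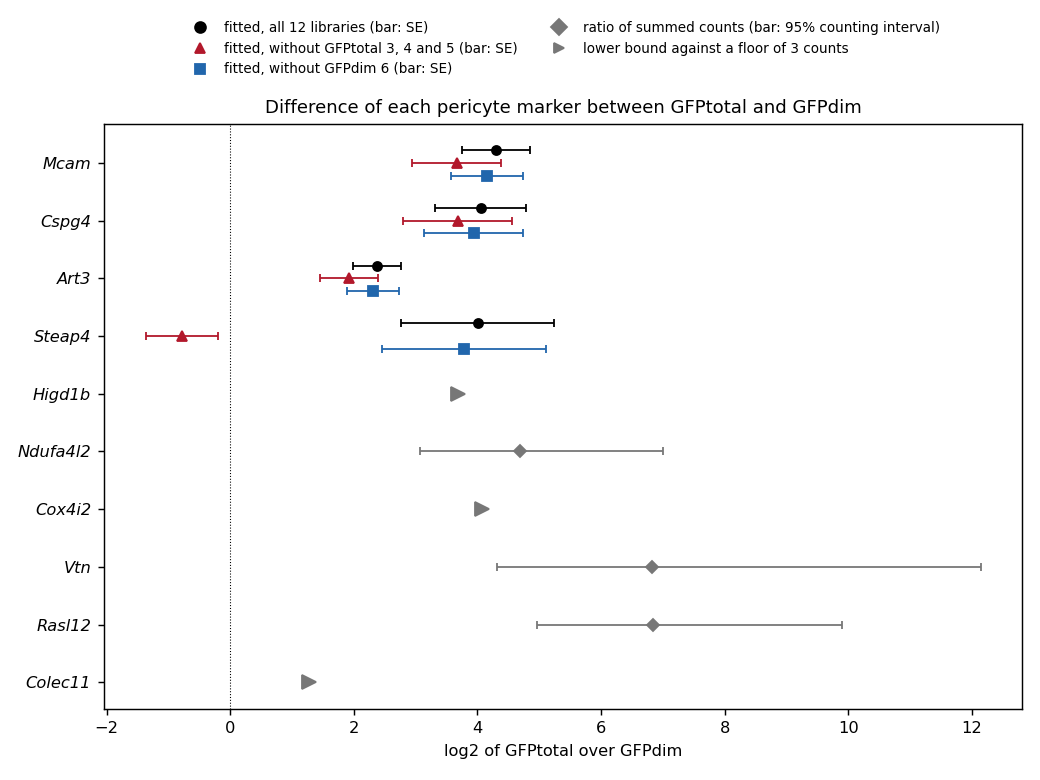
Difference of each marker between GFPtotal and GFPdim on the log2 scale, above 0 where higher in GFPtotal. Fitted values with all libraries, without GFPtotal 3, 4 and 5 and without GFPdim 6 have SE bars. Genes below the filter have ratios of summed counts with 95% counting intervals. Where GFPdim had no count, a triangle marks the ratio against a floor of 3 counts, drawn without its counting interval. Mcam, Cspg4 and Art3 stay above 0 in each of these fits, and Steap4 moves between 4.00 and -0.79.

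Higd1b, Ndufa4l2 and Cox4i2 encode small mitochondrial proteins. Higd1b (chr11:102835849-102838040, ENSMUSG00000020928, 847 exonic bases) is of the family with a hypoxia-inducible domain, and Ndufa4l2 (chr10:127514939-127517152, ENSMUSG00000040280, 960 exonic bases) is a relative of the respiratory chain subunit Ndufa4 and a target of hypoxia-inducible factor. Cox4i2 (chr2:152754173-152765037, ENSMUSG00000009876, 788 exonic bases) is the alternative isoform of subunit IV of cytochrome c oxidase, abundant in lung. With Colec11 they had the fewest summed counts of the markers in GFPtotal.

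Higd1b had 2, 0, 1, 12, 17 and 0 counts in GFPtotal 1 to 6 and no count in any GFPdim library. Its 32 counts lay mostly in GFPtotal 4 and 5, and GFPtotal 2 and 6 had none, like GFPdim. Against a floor of 3 counts over the GFPdim group, the ratio of Higd1b was 12.8 (counting interval 4.02 to 65.5). It was 7.37 without GFPtotal 5 and 10.4 without GFPdim 6. With GFPtotal 3, 4 and 5 left out only 2 counts against 0 were left and no ratio is given.

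Cox4i2 had 0, 0, 16, 19, 1 and 6 counts in GFPtotal 1 to 6 and none in GFPdim. Against the same floor its ratio was 16.9 (counting interval 5.39 to 85.0) over the 42 counts and 13.7 without GFPdim 6. Without GFPtotal 3, 4 and 5 the ratio was 5.40, on 6 counts that all lay in GFPtotal 6. For Higd1b, Cox4i2 and Colec11, a count of 0 over the 6 GFPdim libraries allows a level of up to 0.0305 CPM there. The intervals and the level allowed by 0 counts cover counting error only and take no account of the spread between libraries.

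Ndufa4l2 had 0, 0, 1, 62, 1 and 0 counts in GFPtotal 1 to 6 and 0, 0, 0, 2, 0 and 1 counts in GFPdim 1 to 6. The ratio of summed counts scaled by library size was 25.7 (95% counting interval 8.40 to 128), 31.3 without GFPdim 6 and 63.8 without GFPdim 4. However, 96.9% of its GFPtotal counts came from GFPtotal 4, and without that library the counts were 2 in GFPtotal against 3 in GFPdim. That library alone decided the value. Exonic bases shared with the antisense gene Shmt2 make up 3.13% of Ndufa4l2.

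Short transcripts had few counts in these libraries in general. Genes with up to 1000 exonic bases, where all 3 fall, held 1.58% of the nuclear counts over 7643 genes, with a median of 0.0977 CPM, against 78.2% for genes over 4000 bases. The mRNAs of 82 ribosomal proteins, abundant in most cells, took 0.382% to 0.689% of nuclear counts per library. The part of transcript length in the low counts of Higd1b, Ndufa4l2 and Cox4i2 was not tested.

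Against their close relatives the mitochondrial markers were minor in most libraries. Per exon length Cox4i2 made up a median of 7.74% and at most 32.6% of the Cox4i1 and Cox4i2 signal in GFPtotal, against 0 in GFPdim. Higd1b made up a median of 1.95% and at most 54.0% of the Higd1a and Higd1b signal in GFPtotal, and Ndufa4l2 a median of 0.731% and at most 43.5% of the Ndufa4 and Ndufa4l2 signal there. The relatives were not called by edgeR: the log2 difference was -0.27 for Ndufa4 (adjusted p = 0.690), -0.38 for Cox4i1 (adjusted p = 0.606) and -0.79 for Higd1a (adjusted p = 0.298). The difference between a marker and its relative was not itself tested.

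Vtn, Colec11 and Rasl12 include the secreted markers and a signalling protein. Vtn (chr11:78499091-78502324, ENSMUSG00000017344, 2030 exonic bases) encodes vitronectin, a secreted adhesive glycoprotein bound by integrins. It had 10, 7, 1, 22, 33 and 21 counts in GFPtotal 1 to 6 and 1, 0, 0, 0, 0 and 0 counts in GFPdim 1 to 6. The groups did not overlap, though GFPtotal 3 with a single count was barely above GFPdim 1. GFPtotal 3 was thus low for Vtn, while it was the highest library for Steap4.

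The ratio of summed counts of Vtn was 113 (95% counting interval 19.8 to 4517), 103 without GFPtotal 3, 4 and 5 and 92.0 without GFPdim 6. Without GFPdim 1, which held the only GFPdim count, the ratio was 31.7 against a floor of 3 counts. In a fit with no low-count filter, Vtn was called at 5.93 (SE 1.36, adjusted p = 0.0106, edgeR), where 2.60% of 28485 genes were called higher.

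Rasl12 (chr9:65398488-65414853, ENSMUSG00000041696, 3877 exonic bases) encodes a small GTPase of the Ras-like family. It had 13, 13, 15, 105, 35 and 9 counts in GFPtotal 1 to 6 and 0, 0, 0, 1, 0 and 1 counts in GFPdim 1 to 6. All GFPtotal libraries lay above all GFPdim libraries, and GFPtotal 4 held more than the others. Rasl12 missed the filter narrowly, since 6 libraries needed 0.679 CPM on total counts and GFPtotal 6 had 0.658.

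The ratio of summed counts of Rasl12 was 114 (95% counting interval 31.2 to 951), 63.9 without GFPtotal 4, 47.2 without GFPtotal 3, 4 and 5, 189 without GFPdim 4 and 186 without GFPdim 6. It entered the test in 9 of the alternative settings and was called in all 9, with log2 differences of 6.03 to 6.71 and adjusted p from 0.00105 to 0.00428 (edgeR), among them 6.67 (adjusted p = 0.00275) without GFPdim 6. With no low-count filter it was 6.22 (SE 1.14, adjusted p = 0.00129, edgeR). With at most 1 count in a GFPdim library, Rasl12 could pass a filter only through GFPtotal. Calls after filtering are therefore not independent support. The antisense gene Slc51b shares 2.35% of its exonic bases.

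Colec11 (chr12:28594173-28623290, minus strand, ENSMUSG00000036655, 1383 exonic bases), a collectin that starts the lectin pathway of complement, was close to absent. Its only 6 counts lay in GFPtotal 5, and its ratio of 2.41 against a floor of 3 counts rests on that library alone. Without GFPdim 6 the ratio was 1.96. The 95% counting interval, 0.514 to 14.9, includes no difference between the groups. In the fit with no filter the markers other than Vtn and Rasl12 that had been below it were not called, at 5.88 for Cox4i2 (adjusted p = 0.0656), 5.42 for Higd1b (adjusted p = 0.0859), 4.12 for Ndufa4l2 (adjusted p = 0.158) and 3.18 for Colec11 (adjusted p = 0.187) by edgeR. That fit called 5 of the 10 markers. Together the 6 markers below the filter had 428 counts in GFPtotal and 6 in GFPdim.

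The markers varied more over the GFPtotal libraries than Rgs5, a far more abundant transcript. The highest value over the lowest in GFPtotal was 1.57 for Rgs5, 2.86 for Mcam, 4.32 for Art3, 4.64 for Cspg4, 8.04 for Rasl12, 30.7 for Vtn and 148 for Steap4. The coefficient of variation was 14.6% for Rgs5, 41.1% for Mcam, 39.4% for Art3, 52.8% for Cspg4, 71.4% for Vtn, 103% for Rasl12 and 124% for Steap4. Other pericyte genes varied more than Rgs5 too, with 25.5% for Abcc9, 29.7% for Notch3 and 31.5% for Pdgfrb. Kcnj8 had 13.4 ± 11.4 CPM in GFPtotal (SD, n = 6). Counting error adds to these values most where counts are few.

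For all 10 markers the mean level of GFPtotal 3, 4 and 5 was above that of GFPtotal 1, 2 and 6, and for Mcam, Art3, Steap4, Ndufa4l2 and Rasl12 each library of 3, 4 and 5 was above each of 1, 2 and 6. The highest library was GFPtotal 4 for 6 markers, GFPtotal 5 for 3 and GFPtotal 3 for Steap4. Rgs5 averaged 854 CPM in GFPtotal 3, 4 and 5 and 709 CPM in GFPtotal 1, 2 and 6, so its mean was also higher there. The summed glial list differed between these libraries too, at 29.8 to 48.0 CPM in GFPtotal 3, 4 and 5 against 129 to 238 CPM in GFPtotal 1, 2 and 6, with 177 to 460 CPM in GFPdim. That sum was mostly Ngfr (111 ± 94.6 CPM in GFPtotal and 306 ± 113 CPM in GFPdim, SD, n = 6 each), none of the 4 glial genes tested was called by edgeR, DESeq2 or limma-voom (1 lower at an unadjusted p below 0.05), and their median log2 difference was 0.57. Epithelial markers summed to 15.5 to 42.0 CPM in GFPtotal 3, 4 and 5, against 1.87 to 7.502 CPM in GFPtotal 1, 2 and 6, with 9.03 to 23.6 CPM in GFPdim. The part of glial and epithelial cells in the levels of the pericyte markers was not tested.

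**Figure D3:**
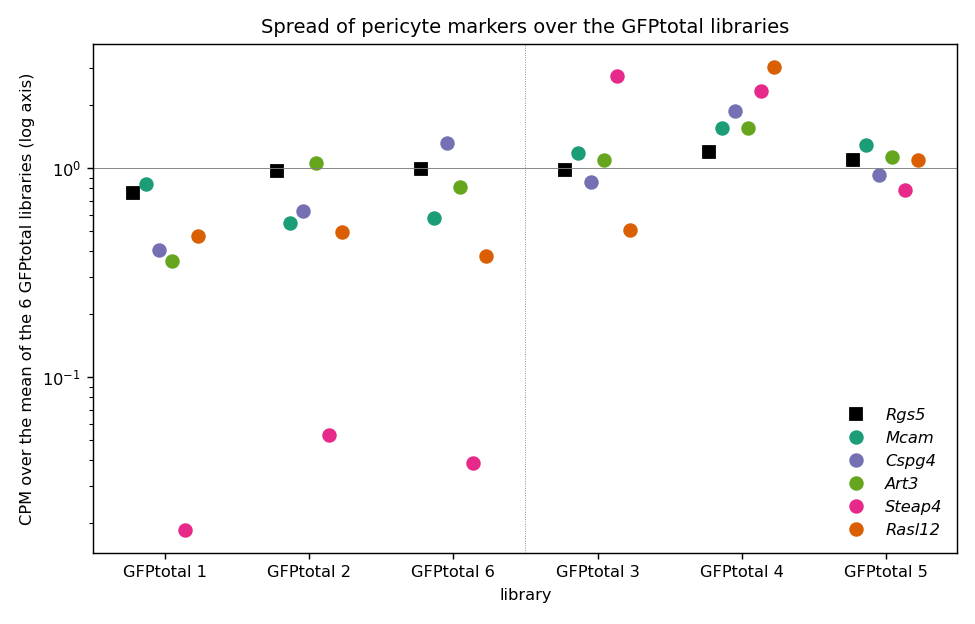
CPM of Mcam, Cspg4, Art3, Steap4, Rasl12 and Rgs5 in each GFPtotal library, divided by the gene's mean over the 6 libraries, on a log axis. Libraries 3, 4 and 5 are drawn right of 1, 2 and 6, and the order within each set carries no meaning. Rgs5 stays near 1 in all 6 while Steap4 spans 148-fold.

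By the correlation of log2 CPM over the 12 libraries, a description that includes the difference between groups and the 3 libraries that stood apart, the genes most like Steap4 were Abca8a (r = 0.964), Hgf (0.963) and Ldhb (0.953). For Art3 they were Ptprf (0.969), the pseudogene Rpl36a-ps4 (0.963), whose reads the mapping could exchange with related copies, and Nfkbia (0.953). For Cspg4 they were Itga1 (0.971), Pigo (0.960) and Rgs4 (0.9501). The genes most like Steap4 were not called by edgeR, at 3.49 for Abca8a (adjusted p = 0.0623), 1.17 for Hgf (adjusted p = 0.268) and 0.91 for Ldhb (adjusted p = 0.367), whereas Itga1 at 4.36 (adjusted p = 2.45e-05) and Rgs4 at 4.11 (adjusted p = 0.00139) were higher in GFPtotal. Pigo was not called (1.552, adjusted p = 0.0672). All libraries enter each r, so depth and the make-up of the sort are shared by the points.

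Genes related to the markers were looked at as lists. Of 20 other pericyte genes, 15 were tested and 8 were called higher, with none lower (0 also at an unadjusted p below 0.05, by DESeq2 and by limma-voom) and a median log2 difference of 1.30, against -0.00 over all genes tested. Among them Abcc9 (7.54) and Kcnj8 (5.45), subunits of an ATP-sensitive potassium channel, Rgs5 (7.34) and Gucy1a1 (4.75), part of soluble guanylate cyclase, which senses nitric oxide, had the largest differences. Leaving out GFPtotal 3, 4 and 5, the list had 5 of 16 called, with a median of 0.88. Kcnj8 (4.21, adjusted p = 0.106), Pdgfrb (0.64, adjusted p = 0.207) and Enpep (1.059, adjusted p = 0.0607) then lost their calls. That fit called 245 of 15703 genes higher, and the fit with all libraries 661 of 14523. Pdgfrb, whose regulatory region drives the reporter, also lost its call with total library size only. Leaving out GFPtotal 4, 5 or 6 or GFPdim 1, 2, 3 or 5 singly ended its call too. Without GFPdim 6 the list had 8 of 15. The list includes genes such as Anpep (0.15, adjusted p = 0.763), Cd248 (0.31, adjusted p = 0.596) and Des (0.32, adjusted p = 0.581) that fibroblasts also express and that were not called. P2ry14 (-1.12, adjusted p = 0.437) and Ebf1 (-0.44, adjusted p = 0.297) lay below 0 and were not called either.

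Of 19 close relatives of the markers, 11 were tested, none was called higher by edgeR (2 at an unadjusted p below 0.05, 1 by DESeq2 and 0 by limma-voom), and Cspg5 was called lower, with a median of 0.03. Cspg5, a neural proteoglycan, had 0.393 ± 0.165 CPM in GFPtotal and 2.48 ± 1.49 CPM in GFPdim (SD, n = 6 each), a log2 difference of -2.64 (SE 0.61, adjusted p = 0.0165, edgeR) whose call was lost when GFPtotal 3, 4 and 5 (-2.25, adjusted p = 0.244) or GFPdim 2 (-2.31, adjusted p = 0.0553) were left out, and with limma-voom (-2.51, adjusted p = 0.0563). Bcam, the adhesion molecule nearest to Mcam in kind, was at 2.64 (adjusted p = 0.0536), above the threshold, but was called by DESeq2 (2.64, adjusted p = 0.00729) and without GFPtotal 1, GFPtotal 2 or GFPdim 6 (2.80 to 3.38, adjusted p of 0.0232 to 0.0474). Alcam was at 0.50 (adjusted p = 0.628). Steap2 (0.32, adjusted p = 0.450) and Steap3 (-0.01, adjusted p = 0.991), relatives of Steap4, had 30.6 ± 3.51 CPM (Steap2) and 65.9 ± 16.4 CPM (Steap3) in GFPtotal, against 24.5 ± 7.14 CPM and 66.3 ± 17.7 CPM in GFPdim (SD, n = 6 each). Colec12, a scavenger receptor related to Colec11, was at 0.78 (adjusted p = 0.151), Rasl11b at 0.68 (adjusted p = 0.730) and Higd2a at 0.03 (adjusted p = 0.986).

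The other 8 relatives fell below the filter. Rasl11a, related to Rasl12, had 233 counts in GFPtotal and 10 in GFPdim, a ratio of 28.1 (95% counting interval 15.0 to 59.3) on a range of 0.232 to 8.22 CPM within GFPtotal. In the fit with no low-count filter Rasl11a was called at 4.57 (adjusted p = 0.0376, edgeR), where 2.60% of 28485 genes were called higher. Art4 had 24 and Art5 42 counts in GFPtotal, against 2 and 8 counts in GFPdim, ratios of 14.4 and 6.32. Neither was called in that fit (adjusted p = 0.241 for Art4 and 0.365 for Art5). Steap1 had 13 counts in GFPtotal against 9 in GFPdim, Colec10 84 against 111, Rasl10a 13 against 41, Rasl10b 1 against 6 and Art1 3 against 0.

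**Figure D4:**
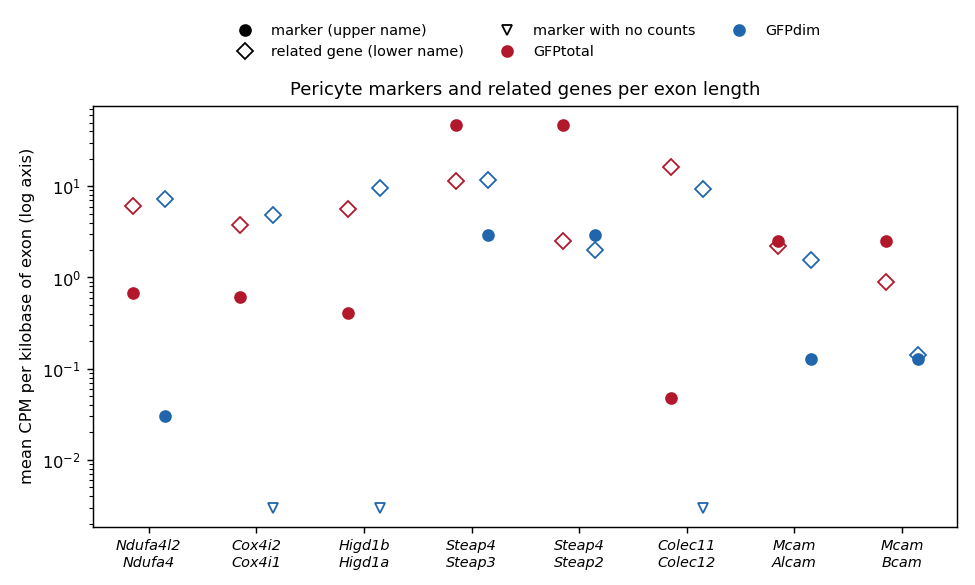
Mean CPM per kilobase of exon of markers (filled circles) and related genes (open diamonds) in GFPtotal and GFPdim, on a log axis, with pairs side by side and the marker named above its relative. A marker with no count is drawn as an open triangle at the bottom. Cox4i1, Ndufa4 and Higd1a lie above their marker in both groups. The GFPtotal mean of Steap4 lies above that of Steap2, 47.3 against 2.52, but its share of the pair ranged from 23.7% to 97.9% over the GFPtotal libraries.

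Partners of the proteins gave few calls. Of the integrin chains that form vitronectin receptors, Itgb1 (0.54, adjusted p = 0.0255) was higher, while Itgb3 (-1.29, adjusted p = 0.0348), of the classical vitronectin receptor, was lower. When GFPtotal 3, 4 and 5 were left out, neither Itgb1 (0.39, adjusted p = 0.244) nor Itgb3 (-0.75, adjusted p = 0.0520) was called, and without GFPdim 6 Itgb3 was at -1.19 (adjusted p = 0.0772), no longer called. Omitting GFPtotal 4 or 5, or GFPdim 2, 3 or 4 also ended the call of Itgb3 (adjusted p of 0.0633 to 0.0789), and leaving out GFPtotal 3 or 4, or GFPdim 2 or 3 that of Itgb1 (adjusted p of 0.0592 to 0.0832). Of 12 ligands and partners of Mcam and Cspg4, 11 were tested, and Lama4, a laminin chain of vessel basement membranes that binds Mcam, was higher by 3.65 (SE 0.51, adjusted p = 0.00130) and by 2.16 (adjusted p = 1.79e-05) without GFPtotal 3, 4 and 5. Plat, tissue plasminogen activator, which Cspg4 binds, was called at 1.75 (adjusted p = 0.0279) but not without GFPtotal 3, 4 and 5 (0.82, adjusted p = 0.489) nor without GFPdim 6 (1.66, adjusted p = 0.0685). Leaving out any of GFPtotal 3, 4 and 5 singly, or GFPdim 3 or 4, also ended its call (adjusted p of 0.0564 to 0.0733). The list had 0 called lower by edgeR, DESeq2 and limma-voom, with 1 at an unadjusted p below 0.05, and its median was -0.14.

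Lists on respiration, hypoxia and complement gave few calls. None of the 12 nuclear-encoded cytochrome c oxidase genes tested of 16 was called by edgeR, with 1 at an unadjusted p below 0.05, 0 by limma-voom and Cox6a1 lower by DESeq2. The median was -0.13, and the most abundant were Cox7c at 0.03 (adjusted p = 0.961) and Cox7b at -0.03 (adjusted p = 0.968). Of 16 targets of hypoxia-inducible factor, all tested, Hif3a (2.95, adjusted p = 0.0153) and Adm (1.92, adjusted p = 0.0341), which encodes the vasodilator adrenomedullin, were higher by edgeR. None was lower (2 at an unadjusted p below 0.05, 0 by DESeq2 and Vegfa by limma-voom). The median was -0.00, the same as over all genes tested. With GFPtotal 3, 4 and 5 left out Hif3a (2.19, adjusted p = 0.221) and Adm (1.15, adjusted p = 0.5264) both lost their calls, and Adm was not called in 7 of the fits with a single library left out (1.71 to 1.89, adjusted p of 0.0599 to 0.102). Of 8 genes of the lectin pathway of complement, 3 were tested and none was called by edgeR (3 higher at an unadjusted p below 0.05, C4b by DESeq2 and 0 by limma-voom), with C3 at 1.53 (adjusted p = 0.196) and C4b at 2.02 (adjusted p = 0.169). Both were near 0 without GFPtotal 3, 4 and 5. C3 was called without GFPdim 3 (2.15, adjusted p = 0.0492) and C4b without GFPdim 5 (3.06, adjusted p = 0.0215). Below the filter, Masp1 had 437 counts in GFPtotal against 6 in GFPdim, Masp2 had 6 against 33, and Mbl1 and Mbl2 had none. In the fit with no low-count filter Masp1 was called at 6.09 (adjusted p = 0.0215, edgeR) and Masp2 was not (-2.10, adjusted p = 0.481). That fit called 2.60% of 28485 genes higher.

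Promoter windows of 250 bases were found for 7 of the 10 markers in the RefSeq table. The 6 motifs were the RBPJ core, the STAT and CEBP motifs, the TEAD core CATTCC, the hypoxia response core ACGTG and the CArG box of serum response factor. Besides Steap4, matches were found before Vtn (RBPJ core 236 and TEAD core 234 bases before the start, overlapping), Colec11 (RBPJ core at 137 and STAT motif at 250) and the other starts of Art3 (RBPJ core at 14 and TEAD core at 16, overlapping, and TEAD core at 139). Mcam, Cspg4 and Rasl12, all called or without overlap between groups, had no match in this window. No window held a CArG box or the hypoxia response core, found in 1.47% and 16.6% of all windows, and 12.64% of all windows held the TEAD core.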

How the data were processed

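The values analysed are raw fragment counts as deposited. The authors made them with featureCounts, per the file headers, from read pairs over exons summed by gene of Ensembl release 84, ignoring strand. The headers give a minimum mapping quality of 10, by which reads that fit several gene copies may also have been left out. Trimming and file handling used cutadapt and SAMtools and the build was GRCm38, per the submitters' processing notes. An aligner is named nowhere in the sources used here. Counts in the table of all samples equalled those of the separate files for 12 of 12 libraries. Symbols were matched for 47224 of 47729 genes.

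Genes were kept by filterByExpr (minimum count 10 in 6 libraries), scaled by TMM factors and tested with edgeR 4.0.16 (quasi-likelihood F test, robust, R 4.3.3), GFPtotal minus GFPdim, with no covariate. P-values are two-sided and Benjamini-Hochberg adjusted over all genes tested. CPM use TMM-scaled library sizes. Ratios of summed counts have exact 95% intervals (Clopper-Pearson), and a fold against 0 counts uses 3 counts over the group. Alternatives used DESeq2 1.42.0, limma 3.58.1 (voom), other scalings, no filter, a block on replicate number and libraries left out. No pair of libraries agreed within sampling noise (chi-square per degree of freedom at least 19.5 in GFPtotal and 25.5 in GFPdim). The named genes are the 10 markers, the 3 genes most correlated with each of the 3 of highest mean CPM (not per exon length), all relatives, and up to 4 called genes of each other list (the 2 most abundant where none is called). Cxcl10, Emcn, Anpep, Cd248, Des, P2ry14, Ebf1, Pdgfrb, Enpep, Notch3, Masp1, Masp2 and markers of other cells were added after their values were seen. The markers and lists were chosen with earlier results of these data known. Promoter sequences are RefSeq's, on GRCm38.p6. Some genes of the lists are not reported here.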

Additional observations from a re-analysis of the deposited data

Results flagged for a closer look

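Of 17 groups of 6 libraries checked for a library far from the others, 4 had one by Dixon's criterion at the 95% level. The criterion is the gap to the nearest library over the whole range. Its chance rate of about 1 in 20 groups holds for normally distributed values, not for counts this low. Of the flagged values, those of Colec11 and Vtn rest on very few counts. In each of these groups only 1 library had a count, so the gap was the whole range and a flag was certain. The number of flagged groups therefore cannot be compared with the chance rate.

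Ndufa4l2 had 3.81 CPM in GFPtotal 4 (62 counts), and the next library had 0.0715 CPM. Rasl12 had 6.44 CPM in GFPtotal 4 (105 counts), against 2.33 CPM in the next library. Colec11 had 0.399 CPM in GFPtotal 5 (6 counts) and no count in the other libraries. Vtn had 0.0632 CPM in GFPdim 1, from 1 count, and none in the other GFPdim libraries.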

How the results depend on the processing

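Mcam, Cspg4 and Art3 were called in each of the 19 alternatives, with log2 differences of 3.66 to 4.65, 3.68 to 4.76 and 1.92 to 2.58. With no low-count filter 5 markers were called, and with 1 library left out 3 to 4. Over all genes, 661 were higher and 124 lower: DESeq2 gave 1033 and 348, limma-voom 675 and 230, total library size only 505 and 257, and leaving out GFPtotal 3, 4 and 5 245 and 50. With 1 library left out the ranges were 406 to 791 higher and 61 to 179 lower. The higher count moved by over 1.5 times without GFPtotal 3 (406), and the lower count without GFPtotal 3 (61), 4 (71) or 5 (69) and without GFPdim 2 (67), 3 (64) or 6 (70). The replicate numbers did not pair the libraries (correlations of deviations from -0.139 to 0.0892, and 2 of 6 matched best with their own number); the fit with a replicate block called 492 higher and 90 lower, with Steap4 at 2.49 (adjusted p = 0.495).

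Without GFPtotal 3, 4 and 5 the sign turned for Steap4 (-0.79), Rasl11b (-0.68), Steap3 (0.036), C3 (-0.076), C4b (-0.061), Abca8a (-0.058), Hgf (-0.65) and Ldhb (-0.82). Higd2a turned with total library size only (-0.074), limma-voom (-0.10) and the block (-0.091), Cox7c with total library size only (-0.078) and Cox7b with limma-voom (0.025). With 1 library left out, Higd2a ran from -0.42 to 0.26, Steap3 from -0.11 to 0.082, Rasl11b from -0.079 to 0.89, Cox7c from -0.048 to 0.14 and Cox7b from -0.12 to 0.10. The causes were not tested. None of the 6 markers below the filter had more than 3 counts in GFPdim, so their ratios rest on few counts. Ratios also moved with GFPtotal libraries, as for Rasl12 without GFPtotal 4 (63.9 against 114). The part of depth in the low counts was not tested.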
